A study of Homo sapiens with 18 samples.

Results

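HOXB13 is the homeobox transcription factor on which the study is built, and its RNA was followed together with that of 8 genes whose products belong to the TALE class of homeobox proteins: MEIS1, MEIS2, MEIS3, PBX2, PBX3, PBX4, PKNOX1 and PKNOX2. These 9 genes were taken by name from the 58735 genes of the read count table; the rule itself uses no measured value. Of the 9, 7 had enough counts to be tested, among 17162 tested genes in all. MEIS2 and MEIS3 were below that limit.

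Libraries came from LNCaP, an established androgen-responsive human prostate cancer cell line. A hairpin RNA (shRNA) against HOXB13 was present in every group, controls included. The inducible rescue was either empty (EV, the vector alone), wild type (WT) or a mutant of HOXB13 named 3A, in which threonine 8, serine 31 and threonine 41 are replaced by alanine. Steroids were withdrawn for 48 h by culture in 2% charcoal-stripped serum before the cells received 0.1% ethanol as vehicle or 10 nM R1881, a synthetic androgen, for 24 h. The 6 groups of 3 libraries are therefore EV, WT and 3A in vehicle and EV, WT and 3A with R1881, and libraries are numbered as in the sample titles. Whether the 3 libraries of a group are separate cultures is not stated, and p-values therefore measure a spread that may be technical. They also do not say whether a rescue line is a clone or a pool.

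HOX proteins bind short DNA sequences and often do so next to a TALE protein, a homeodomain protein named for a few extra amino acids in a loop of the homeodomain. PBX proteins pair with MEIS or PKNOX proteins (the latter are also called PREP), and these pairs can bind DNA with a HOX protein as a further partner. HOXB13 is the most 5′ gene of the HOXB cluster, marks the prostate epithelium and can bind MEIS proteins.

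The 3 codons named in the 3A label lie in exon 1 of the 2 exons of HOXB13, and their surroundings are shown because these sites define the rescue groups. The sequences are the reference coding strand of the endogenous gene, chromosome 17, minus strand, hg38, with the codon that the mutant replaces in capitals. The positions are chr17:48728558-48728584 for T8, chr17:48728489-48728515 for S31 and chr17:48728459-48728485 for T41.

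T8: ggcaattatgccACCttggatggagcc
S31: ctggtcgcccacTCCcctctgaccagc
T41: ccagcggcgcctACGctgatgcctgct

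In each sequence 12 bases flank the codon on either side. The counts are given per gene and hold no base calls, so RNA with these codons and RNA with alanine codons are added together in the values below. RNA of the endogenous gene and of the rescue construct is likewise not separated, as far as the construct carries sequence of the annotated exons.

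Per-library totals ran from 22812641 to 30611980 counts, 21253 to 23377 genes were detected, and the mitochondrial share was 2.71% to 5.70%. No pair of libraries in a group was alike within sampling noise (chi-square over degrees of freedom from 9.26 to 54.0). Markers of luminal prostate epithelium were present in every library (7 of 7 genes, among them KRT8 at 546 to 2340 CPM, the count scaled by library size). Defining markers of other cells were at or near 0, with TP63 (basal cells) and CD3E (T cells) at 0 counts in all 18 libraries and DCN (stroma) and CDH5 (endothelium) at 0 in 17 of them. The summed level of the 7 luminal markers was 2752 to 3918 CPM in the vehicle groups. With R1881 this luminal sum was 10160 to 11280 in EV, 6673 to 7704 in WT and 8805 to 9518 in 3A. The WT libraries were thus the lowest of the R1881 libraries, without overlap. The sum includes KLK3 (399 to 5093 CPM over all libraries), TMPRSS2 (56.5 to 1600) and KLK2 (16.2 to 728). It was higher with R1881 in each rescue state, so it is not a measure of cell identity alone. The summed level of 6 stromal markers was 14.5 to 27.9 CPM and came mostly from COL1A1. That of 3 endothelial markers was 3.25 to 12.4 and came mostly from VWF, and it was higher in the WT and 3A vehicle groups (11.02 to 12.4) than in EV vehicle (3.41 to 5.70). The sum of 3 basal markers was 0 to 3.30, came mostly from KRT14 and was highest in the WT R1881 libraries (1.12 to 3.30). The sum of 3 immune markers was at most 0.187. The part of these levels in the results was not tested.

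The deposited FPKM values are counts scaled by exon length and library size, so they allow levels to be compared between genes. HOXB13 stood far above all the TALE genes, at 90.4 to 249 FPKM per library, and its mean ranked 204 of 19951 protein-coding genes. Its level was 13.8 to 35.4 times that of PBX2, the next gene, in each library. PBX2 was at 5.34 to 7.80 FPKM, PKNOX1 at 3.11 to 5.03 FPKM and PBX3 at 2.23 to 4.03 FPKM, and these 3 TALE genes were detected in all libraries without a large spread. PKNOX2 (0.502 to 2.42 FPKM), MEIS1 (0.198 to 1.45 FPKM) and PBX4 (0.307 to 0.961 FPKM) were lower.

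MEIS3 and MEIS2 came last. MEIS3, a MEIS family member, had 50 counts over all libraries, with 4 libraries at 0 and no library above 0.0660 FPKM. MEIS2, which with MEIS1 is one of the MEIS genes known in prostate tissue, had 5 counts in all, with 14 of 18 libraries at 0 and no library above 2 counts. A count of 0 in a library allows a level of up to 0.0943 to 0.140 CPM, depending on the library's depth and covering counting error only. Neither gene was tested, and no fold is given for them. Pseudogene copies had more counts than MEIS3 itself (MEIS3P1 had 85 to 166 per library, MEIS3P2 had 1 to 20), and how reads that fit several genes were counted is not given in the sources used here, so the MEIS3 level is uncertain. PBX2P1, a copy of PBX2, had 0 to 6 counts against 557 to 864 for PBX2.

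The order of the FPKM levels began with HOXB13 and PBX2 in each of the 6 groups. PKNOX1 and PBX3 overlapped in the 3 vehicle groups, and PKNOX1 lay above PBX3 without overlap in the 3 R1881 groups. PKNOX2 was the fifth and MEIS1 the seventh in each vehicle group, although PBX4 and MEIS1 overlapped in WT vehicle. With R1881, MEIS1 was the fifth in EV and 3A, above PKNOX2 without overlap, and PKNOX2 was still above MEIS1 in WT. PKNOX2 and PBX4 overlapped in EV and 3A with R1881.

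**Figure D1:**
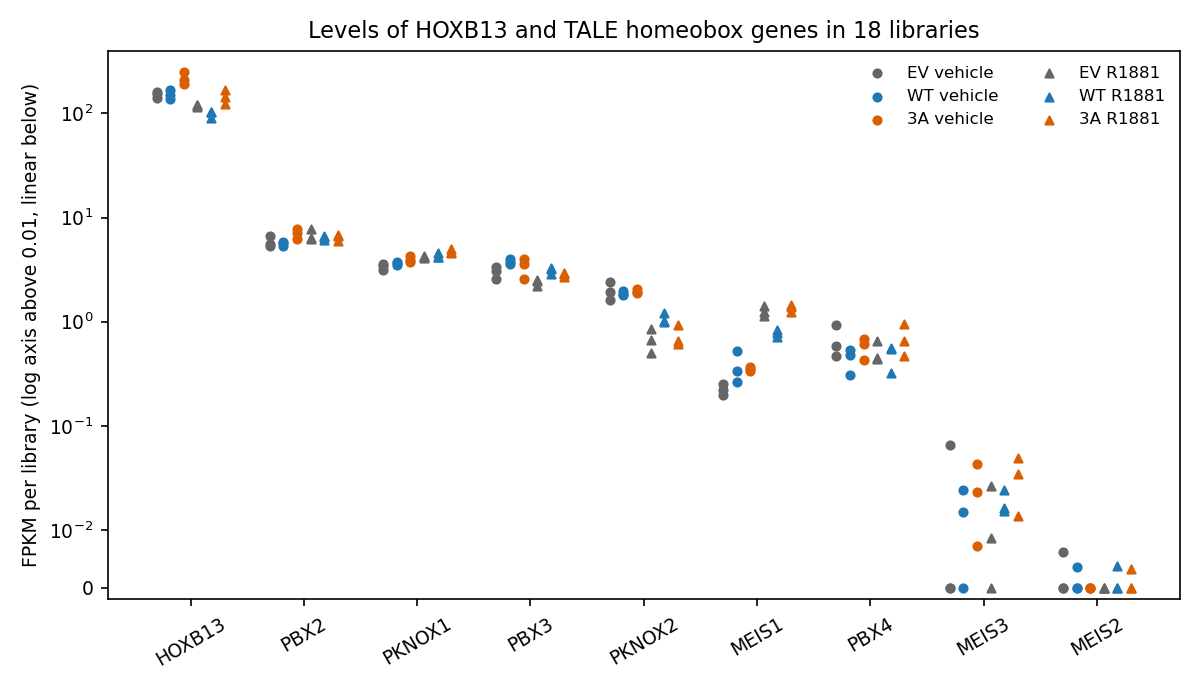
FPKM of each gene (symmetric log axis, linear below 0.01) in each of the 18 libraries, as points by group (circles vehicle, triangles R1881; grey EV, blue WT, orange 3A). HOXB13 lies at 90.4 to 249 FPKM in every library, the other genes lie below 10, and MEIS2 is at 0 in 14 of 18 libraries.

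Changes between groups were read from CPM, with library sizes set by the TMM method, and were tested with edgeR's quasi-likelihood test on the counts. A gene was called when its p, adjusted by Benjamini-Hochberg over all 17162 tested genes, was under 0.05. Values are log2 fold changes ± standard error. Bulk RNA cannot tell a change in RNA per cell from a change in the share of cells with that RNA.

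In the R1881 response MEIS1 rose and PKNOX2 and HOXB13 fell in all 3 rescue states. In EV cells 4 of the 7 tested genes were called (2 higher and 2 lower), where 25.3% of all tested genes were called (2270 higher and 2066 lower). In WT cells 3 of 7 were called (1 higher, 2 lower), where 20.1% of all tested genes were called. In 3A cells 3 of 7 were called (1 higher, 2 lower), where 24.5% of all tested genes were called. The median log2 fold change of the 7 genes was -0.34 in EV, 0.10 in WT and -0.12 in 3A, beside -0.02, -0.03 and -0.01 over all tested genes. The R1881 and vehicle libraries did not overlap for 5 of the 7 genes in EV, 6 in WT and 4 in 3A. Of all tested genes 42.2%, 32.6% and 36.0% did not overlap, so a lack of overlap was common.

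MEIS1 (ENSG00000143995, chromosome 2, 66433452 to 66573869, plus strand, hg38) encodes a partner of PBX and posterior HOX proteins. Vehicle libraries 1, 2 and 3 had 2.44, 2.18 and 2.82 CPM in EV, 2.91, 5.73 and 3.81 in WT and 3.90, 4.01 and 3.72 in 3A. With R1881 they had 12.5, 15.6 and 13.6 CPM in EV, 9.02, 7.86 and 8.59 in WT and 15.9, 15.4 and 13.7 in 3A. Every R1881 library lay above every vehicle library, the WT libraries were the lowest of the R1881 libraries, and WT vehicle library 2 was the highest in vehicle. The log2 fold change was 2.49 ± 0.20 in EV (5.60-fold, edgeR, adjusted p of 2.69e-09), 1.03 ± 0.19 in WT (2.04-fold, edgeR, adjusted p of 0.000335) and 1.95 ± 0.19 in 3A (3.85-fold, edgeR, adjusted p of 5.75e-08). All 3 calls held in each of 12 alternatives, with values of 2.41 to 2.60 in EV, 0.84 to 1.34 in WT and 1.91 to 2.01 in 3A. Antisense genes overlap 4.19% of the MEIS1 exon bases and had 0 to 2 counts.

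The MEIS1 response was smaller in WT than in EV cells. The difference of the responses was -1.45 ± 0.27 (95% interval -2.01 to -0.89, edgeR, adjusted p of 0.0234), and MEIS1 was the only one of the 7 tested genes called for this difference, where 0.198% of all tested genes were called. Both treatments entered the value, since the WT level was 4.15 ± 1.44 CPM in vehicle against 2.48 ± 0.32 in EV (SD, n = 3) and 8.49 ± 0.58 with R1881 against 13.9 ± 1.57. The call held in 11 of 18 alternatives, with adjusted p from 0.000114 to 0.0920. It was lost when the groups compared were fitted alone (-1.45) and in 6 of the 12 fits that leave out a library. These were the fits lacking library 1 (-1.45) or 2 (-1.37) of EV vehicle, 2 of WT vehicle (-1.16), 2 (-1.37) or 3 (-1.48) of EV with R1881, or 2 of WT with R1881 (-1.41). Between 3A and WT the response of MEIS1 differed by 0.91 ± 0.26 (95% interval 0.37 to 1.46, edgeR, adjusted p of 0.247), and between 3A and EV by -0.54 ± 0.27 (95% interval -1.09 to 0.01, edgeR, adjusted p of 0.808). No tested gene of the 7 was called for these differences, where 0.0583% and 0.0117% of all tested genes were called (edgeR). At an unadjusted p under 0.05 there were 2 and 0, and DESeq2 called 0 of the 7 in both.

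PKNOX2 (ENSG00000165495, chromosome 11, 125164687 to 125433389, plus strand, hg38) encodes a TALE protein that pairs with PBX proteins, as MEIS proteins do. In vehicle it had 12.8, 15.9 and 10.7 CPM in EV, 13.1, 12.2 and 12.02 in WT and 12.7, 12.5 and 13.5 in 3A. With R1881 the same libraries by number had 4.42, 5.57 and 3.31 CPM in EV, 6.62, 8.10 and 6.64 in WT and 3.99, 6.18 and 4.33 in 3A. All R1881 libraries lay below all vehicle libraries, and the WT libraries were the highest of the R1881 libraries. PKNOX2 fell by 1.56 ± 0.19 in EV (edgeR, adjusted p of 2.51e-06), by 0.80 ± 0.19 in WT (edgeR, adjusted p of 0.00342) and by 1.41 ± 0.19 in 3A (edgeR, adjusted p of 7.09e-06), on the log2 scale. Each call held in all 12 alternatives. The difference of the WT and EV responses was 0.76 with an edgeR adjusted p of 0.341, and that of 3A and WT was -0.61 (95% interval -1.16 to -0.05) with an edgeR adjusted p of 0.482.

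HOXB13 (ENSG00000159184, chromosome 17, 48724763 to 48729178, minus strand, hg38) is the targeted gene. Vehicle libraries 1 to 3 had 538, 497 and 564 CPM in EV, 529, 589 and 490 in WT and 668, 870 and 739 in 3A. The R1881 libraries had 421, 405 and 424 CPM in EV, 358, 317 and 366 in WT and 578, 506 and 436 in 3A. Within each rescue state the R1881 libraries lay below the vehicle libraries, the WT and EV vehicle libraries overlapped, and the 3A libraries were the highest in each treatment. HOXB13 fell with R1881 by 0.36 ± 0.11 in EV (edgeR, adjusted p of 0.0202), 0.63 ± 0.11 in WT (edgeR, adjusted p of 0.000221) and 0.58 ± 0.11 in 3A (edgeR, adjusted p of 0.000361). The WT and 3A calls held in all 12 alternatives. The EV call held in 7 of 12 and was lost in 5 of 6 fits that leave out a library, with values of -0.39 to -0.30 over the 6. The fit lacking library 2 of EV vehicle was the one that kept it. WT was not called above EV for HOXB13 RNA in either treatment, and gene counts check neither the knockdown nor the wild-type rescue.

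**Figure D2:**
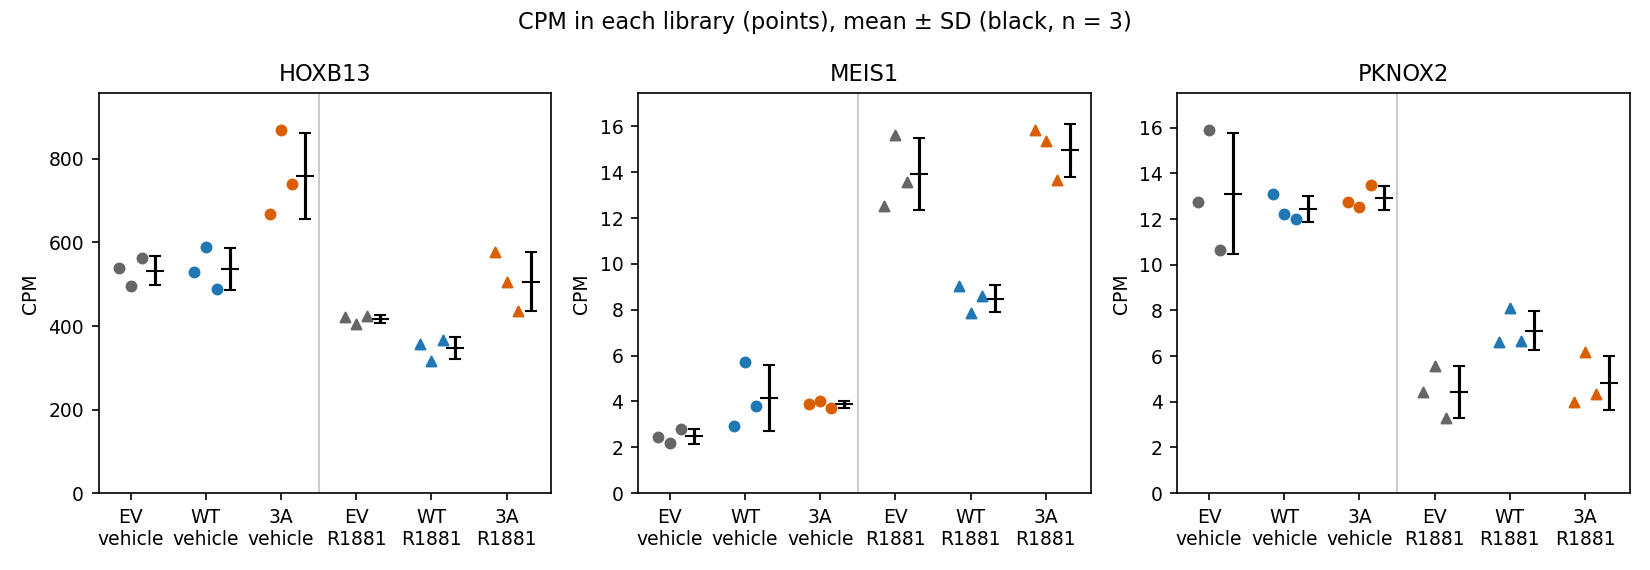
CPM (linear axes from 0) of HOXB13, MEIS1 and PKNOX2 in each library, by group, with the group mean ± SD (black, n = 3). MEIS1 is at 7.86 to 15.9 CPM in the R1881 libraries and 2.18 to 5.73 in vehicle, PKNOX2 at 3.31 to 8.10 and 10.7 to 15.9, and the 3A libraries are the highest for HOXB13 in each treatment.

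PKNOX1 (ENSG00000160199, chromosome 21, 42974510 to 43033931, plus strand, hg38) is the more widely expressed PKNOX gene. It had 26.6, 23.9 and 27.6 CPM in the EV vehicle libraries and 33.2, 31.04 and 32.5 in EV with R1881. In WT it had 28.1, 26.9 and 29.5 CPM in vehicle and 34.8, 32.2 and 32.5 with R1881, and in 3A 30.2, 32.8 and 29.1 in vehicle and 38.2, 34.7 and 36.0 with R1881. In each rescue state all R1881 libraries lay above all vehicle libraries, by a small amount. PKNOX1 rose in EV (0.31 ± 0.09, edgeR, adjusted p of 0.0154). The values were 0.24 ± 0.09 in WT (edgeR, adjusted p of 0.0757) and 0.24 ± 0.09 in 3A (edgeR, adjusted p of 0.0566), which missed the threshold. The EV call was lost with no filter on low counts (0.35) and without EV vehicle library 2 (0.26), and the 3A value was called in 3 of 12 alternatives (DESeq2, another filter and the replicate block). The difference between the WT and EV responses of PKNOX1 was -0.07, with a 95% interval of -0.34 to 0.20.

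The PBX genes encode the usual partners of MEIS and PKNOX proteins, and none of the 3 was called for R1881 in any rescue state. PBX2 (ENSG00000204304, chromosome 6, 32184741 to 32190186, minus strand, hg38) ranged from 23.5 to 34.2 CPM over all libraries, with a log2 fold change of 0.20 in EV, 0.18 in WT and -0.12 in 3A (95% intervals -0.04 to 0.44, -0.06 to 0.42 and -0.36 to 0.11). Of its exon bases 15.1% are shared with another annotated gene, which had 0 or 1 count. PBX3 (ENSG00000167081, chromosome 9, 125747345 to 125967377, plus strand, hg38) had 15.4, 11.9 and 14.2 CPM in EV vehicle and 11.3, 10.1 and 11.4 in EV with R1881. It was lower with R1881 in each state, by values that missed the threshold (-0.34 in EV, edgeR, adjusted p of 0.0961; -0.27 in WT, edgeR, adjusted p of 0.198; -0.27 in 3A, edgeR, adjusted p of 0.188). Without 3A vehicle library 3, which at 11.8 CPM lay below the other two of its group (16.5 and 18.3), the 3A value was -0.43 and was called. PBX4 (ENSG00000105717, chromosome 19, 19561707 to 19618916, minus strand, hg38) had only 19 to 71 counts per library, and its intervals were wide, from -1.11 to 0.35 in EV, -0.65 to 0.86 in WT and -0.42 to 1.01 in 3A. A change of PBX4 within these limits was not detectable at this depth.

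**Figure D3:**
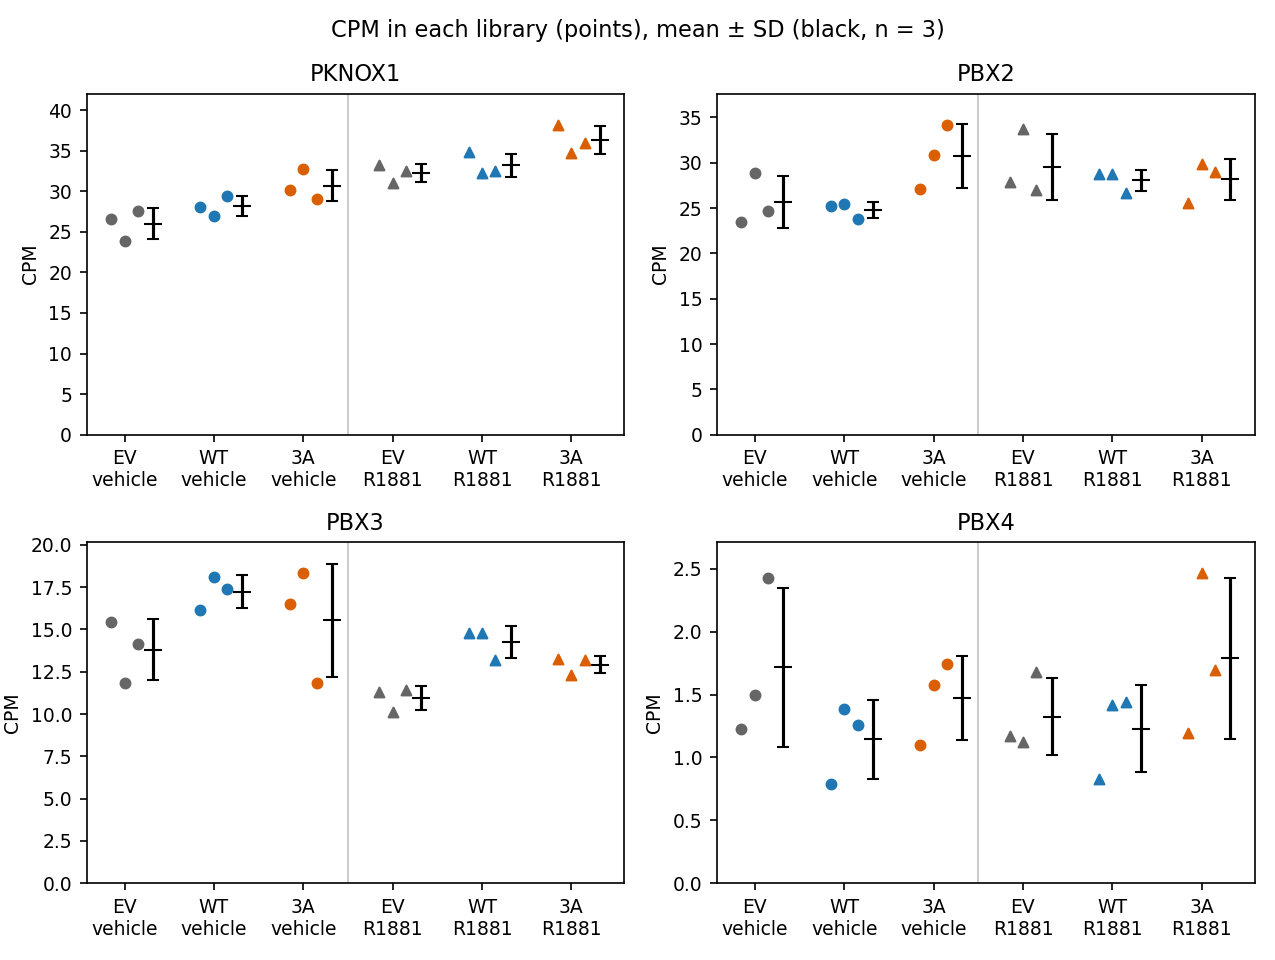
CPM (linear axes from 0) of PKNOX1, PBX2, PBX3 and PBX4 in each library, by group, with the group mean ± SD (black, n = 3). PKNOX1 is higher with R1881 in each rescue state, whereas the PBX2 and PBX4 libraries overlap between treatments in EV and 3A.

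**Figure D4:**
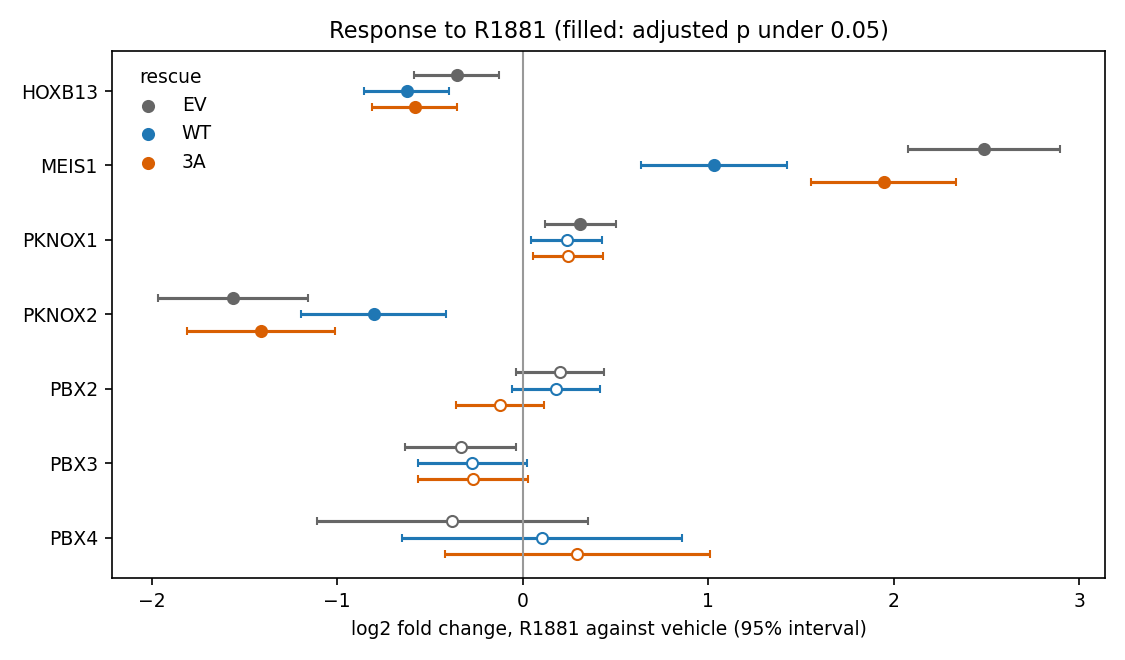
Log2 fold change of the 7 tested genes, R1881 against vehicle, with 95% intervals, in EV (grey), WT (blue) and 3A (orange) cells, with filled points where the adjusted p was under 0.05. MEIS1 lies at 2.49, 1.03 and 1.95 and PKNOX2 at -1.56, -0.80 and -1.41, and the PBX points are open.

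MEIS1 and PKNOX2 both encode PBX partners, as PKNOX1 does, and their FPKM levels were set against each other within each library. The pair was chosen after its opposite responses had been seen, so the ratio restates those values on another scale and is given as a description. An exact permutation test of 3 against 3 libraries cannot give a p below 0.1, so no p-value is used for the ratio. In vehicle the MEIS1 to PKNOX2 ratio was 0.0820 to 0.158 in EV, 0.133 to 0.281 in WT and 0.165 to 0.191 in 3A. With R1881 it was 1.70, 1.68 and 2.45 in EV, 0.815, 0.581 and 0.773 in WT and 2.38, 1.49 and 1.88 in 3A. MEIS1 was thus below PKNOX2 in all vehicle libraries and in all WT R1881 libraries, and above it in all EV and 3A R1881 libraries. The log2 ratio of WT with R1881 was 1.42 below that of EV (means -0.48 and 0.93), and that of 3A was 1.39 above that of WT. Between 3A and EV with R1881 the log2 ratio differed by -0.02, and the libraries overlapped.

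PKNOX1 took the greater share of the summed FPKM of the MEIS and PKNOX genes in each of the 18 libraries, from 53.6% to 71.0%. The share of PKNOX2 was 35.3% ± 6.08 in EV vehicle and 10.9% ± 2.47 in EV with R1881 (SD, n = 3). That of MEIS1 was 4.01% ± 0.633 and 20.5% ± 1.94. In WT cells the MEIS1 share was 6.35% ± 2.26 in vehicle and 12.5% ± 0.741 with R1881, and in 3A cells 5.55% ± 0.102 and 19.8% ± 0.961. The R1881 libraries of WT had a lower MEIS1 share than those of EV and 3A, without overlap.

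**Figure D5:**
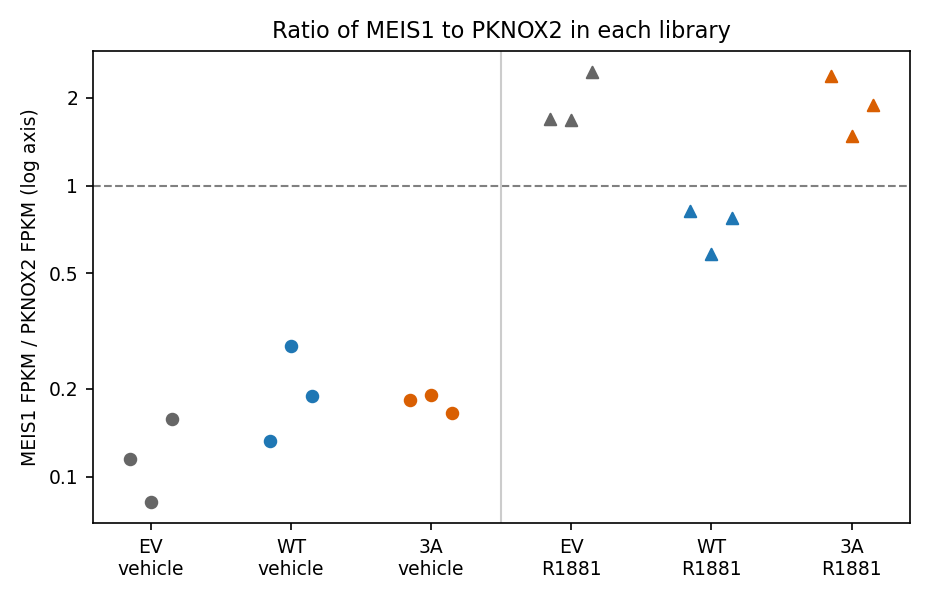
Ratio of MEIS1 to PKNOX2 FPKM in each library (log axis), by group, with the dashed line at equal levels. The vehicle libraries lie at 0.0820 to 0.281, the WT R1881 libraries at 0.581 to 0.815, and the EV and 3A R1881 libraries at 1.49 to 2.45.

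The comparison of WT with EV asks what wild-type HOXB13 changes under the hairpin. In vehicle edgeR called 0 of the 7 tested genes (2 at an unadjusted p under 0.05), where 0.769% of all tested genes were called, and DESeq2 called 1, MEIS1. The MEIS1 value was 0.74 ± 0.20 (edgeR, adjusted p of 0.114), with all 3 WT libraries above all 3 EV libraries. With R1881 edgeR called 2 of the 7, where 8.70% of all tested genes were called. MEIS1 was lower in WT (-0.71 ± 0.18, edgeR, adjusted p of 0.0164) and PKNOX2 was higher (0.68 ± 0.20, edgeR, adjusted p of 0.0355), in 3 of 3 libraries each without overlap. The MEIS1 call was lost when library 2 of EV (-0.63) or library 2 of WT (-0.67) was left out. The PKNOX2 call was lost when library 1 (0.67) or 3 (0.51) of EV or library 1 (0.73) or 2 (0.57) of WT was left out. HOXB13 itself did not pass the threshold, at 0.01 in vehicle (95% interval -0.22 to 0.24) and -0.26 with R1881 (95% interval -0.49 to -0.03, edgeR, adjusted p of 0.143).

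Between WT and EV 2 of the 7 genes did not overlap in vehicle and 4 with R1881, where 10.8% and 31.5% of all tested genes did not. PBX3 had all 3 WT libraries above all 3 EV libraries in both treatments, at 16.2, 18.1 and 17.4 CPM in WT vehicle and 14.8, 14.8 and 13.2 in WT with R1881. Its log2 fold change from EV was 0.32 in vehicle (edgeR, adjusted p of 0.602) and 0.38 with R1881 (edgeR, adjusted p of 0.102). Neither value passed the threshold in any of 12 alternatives. For PBX2, PBX4 and PKNOX1 the WT and EV libraries overlapped in both treatments.

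In the comparison of 3A with EV, HOXB13 was the only one of the 7 genes called in vehicle, where 7.25% of all tested genes were called. It was higher in 3A by 0.51 ± 0.11 (edgeR, adjusted p of 0.00482), a call that held in all 12 alternatives. MEIS1 was at 0.64 ± 0.20 (edgeR, adjusted p of 0.0550), with all 3A above all EV libraries, and was called by DESeq2 (0.65) and with the replicate block (0.64). In vehicle 3 of the 7 genes did not overlap between 3A and EV, where 26.3% of all tested genes did not. With R1881 edgeR called 0 of the 7 (1 at an unadjusted p under 0.05, and DESeq2 also called 0), where 8.45% of all tested genes were called. HOXB13 was at 0.28 ± 0.11 there (edgeR, adjusted p of 0.119), and MEIS1 at 0.10 (95% interval -0.26 to 0.47) and PKNOX2 at 0.13 (95% interval -0.29 to 0.55).

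The comparison of 3A with WT asks what the replacement of the 3 residues by alanine changes. In vehicle 1 of the 7 genes was called, HOXB13, which was higher in 3A by 0.50 ± 0.11 (edgeR, adjusted p of 0.00807), where 5.63% of all tested genes were called. With R1881 2 of the 7 were called, both higher in 3A, where 3.18% of all tested genes were called. These were HOXB13 (0.55 ± 0.11, edgeR, adjusted p of 0.00595) and MEIS1 (0.82 ± 0.18, edgeR, adjusted p of 0.0112). The HOXB13 call in vehicle was lost without 3A vehicle library 2 (0.39), and both calls with R1881 were lost without WT R1881 library 2 (0.48 and 0.76). PKNOX2 was lower in 3A with R1881 in all 3 libraries, at -0.55 ± 0.19, but missed the threshold (edgeR, adjusted p of 0.137) and was called only with the replicate block (-0.56). With R1881 3 of the 7 genes did not overlap between 3A and WT, where 19.1% of all tested genes did not. HOXB13 RNA was higher in the same 3A libraries, so a difference between the 3A and WT groups cannot be told apart from a difference in the amount of HOXB13 RNA.

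RefSeq promoter windows (build GRCh38.p14, from 250 bases before to 50 after the start) were on hand for 7 of the 9 genes, 9 windows in all. HOXB13 and PKNOX2 are named only. The windows were searched on both strands for TGACAG, the MEIS and PKNOX site, and CAATAAA, an HOXB13-like site. Of 35116 RefSeq promoter windows of the same length, 15.8% hold TGACAG and 4% hold CAATAAA. Among the 9 windows there were 2 matches, TGACAG in the PBX3 window, 20 bases before the start on the minus strand, and CAATAAA in a MEIS2 window, 61 bases before the start on the minus strand. The 250 bases before the start are shown for MEIS1, which had the largest R1881 response of the 7 tested genes in each rescue state, and for PBX3, with the match in capitals. They lie at chr2:66434875-66435124 and chr9:125747933-125748182, both on the plus strand.

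MEIS1: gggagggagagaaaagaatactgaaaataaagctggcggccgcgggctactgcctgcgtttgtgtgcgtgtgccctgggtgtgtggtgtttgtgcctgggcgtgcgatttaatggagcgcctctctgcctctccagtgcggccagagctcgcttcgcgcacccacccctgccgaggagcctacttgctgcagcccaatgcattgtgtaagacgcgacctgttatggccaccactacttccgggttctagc
PBX3: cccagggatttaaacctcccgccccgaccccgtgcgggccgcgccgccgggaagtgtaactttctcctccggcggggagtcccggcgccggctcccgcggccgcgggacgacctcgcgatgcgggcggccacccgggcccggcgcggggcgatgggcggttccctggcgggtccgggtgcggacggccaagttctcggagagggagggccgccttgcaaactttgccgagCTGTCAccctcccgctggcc

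The capitals read CTGTCA, the reverse complement of TGACAG. A match or its absence describes only these letters in this window and says nothing of binding. The GC content is 59.6% in the MEIS1 and 75.6% in the PBX3 sequence.

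Other TALE homeobox genes, the TGIF and IRX families and MKX, were counted as a list of 9, of which 7 were tested. With R1881, 3 of the 7 were lower and 0 higher in each rescue state (edgeR adjusted p under 0.05), where 25.3%, 20.1% and 24.5% of all tested genes were called in EV, WT and 3A. The median log2 fold change of the 7 was -0.45 in EV, -0.25 in WT and -0.37 in 3A, beside -0.02, -0.03 and -0.01 over all tested genes. IRX3, a patterning factor, fell from 30.3 ± 1.16 to 15.4 ± 0.701 CPM in EV, from 27.0 ± 2.03 to 12.7 ± 0.945 in WT and from 28.5 ± 3.69 to 14.7 ± 2.04 in 3A (SD, n = 3). IRX5, its neighbour in the same cluster, fell by 1.47, 1.13 and 1.12 on the log2 scale in EV, WT and 3A. TGIF1, a corepressor of SMAD signalling, fell by 0.45 in EV and 0.38 in WT, and TGIF2, named after its value was seen, was the gene that fell along with IRX3 and IRX5 in 3A (by 0.37, lost without any of 4 libraries, 3A vehicle 2 or 3 or 3A R1881 1 or 3). The IRX3, IRX5 and TGIF1 calls held without any library of their groups. In the rescue comparisons edgeR called 0 of the 7, where 0.769% to 8.70% of all tested genes were called, and in the response differences also 0, where 0.0117% to 0.198% were called.

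HOX genes of paralog group 13 and the HOXB cluster were counted as a list of 12, of which 4 were tested and 8 had too few counts. With R1881 edgeR called 2 of the 4 lower in EV cells (25.3% of all tested genes were called), 3 of the 4 in WT cells (20.1%) and 2 of the 4 in 3A cells (24.5%), and 0 higher. HOXC13, a paralog of HOXB13, fell with R1881 from 23.3 ± 1.06 to 11.1 ± 1.01 CPM in EV, from 23.1 ± 1.32 to 8.18 ± 0.684 in WT and from 22.9 ± 1.45 to 8.87 ± 2.11 in 3A (SD, n = 3). HOXB9, a neighbour of HOXB13 in the cluster, fell by 1.17, 0.81 and 0.88 on the log2 scale. These calls held without any library of their groups. HOXB7 was near the detection limit, at 0.0393 to 1.26 CPM in the R1881 libraries, and was lower in WT than in 3A with R1881 (the value of 3A against WT was 3.09, edgeR, adjusted p of 0.00451, and 2.44 to 4.02 over the 6 fits that leave out a library). HOXB9 was higher in WT than in EV with R1881 (0.59, edgeR, adjusted p of 0.0472), a call lost without any of the 6 libraries, and HOXB7 was lower (-2.25, edgeR, adjusted p of 0.0337), a call that held only without WT R1881 library 1.

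The likeness of patterns was described by Pearson's r of log2 CPM over the 18 libraries, which share treatments and groups, among 13174 other protein-coding genes. For MEIS1 the highest were TBC1D1 (0.967) and RHOBTB2 (0.960), and for PKNOX2 TIMP2 (0.980) and GARNL3 (0.973). PKNOX1 was most like KNSTRN (0.969) and KIF22 (0.953), PBX2 most like NEURL4 (0.880) and DSP (0.875), and PBX3 most like TFDP1 (0.878) and RALA (0.867). For HOXB13 the highest were GSTA2 (0.900), NONO (0.884), PPP1R10 (0.880), TRIM28 (0.873) and VARS2 (0.871), and the lowest were CLGN (-0.918), QRFP (-0.893) and FBXO42 (-0.881). GSTA2 has near-identical copies, so its counts are uncertain. These values include the differences between groups. Over deviations from the group means all of these correlations were weaker, except that of DSP with PBX2. There r with HOXB13 was 0.386 for GSTA2, 0.516 for NONO, 0.074 for PPP1R10, -0.380 for CLGN, -0.248 for QRFP and -0.083 for FBXO42. With MEIS1 r was 0.337 for TBC1D1 and 0.411 for RHOBTB2. It was 0.915 for TIMP2 with PKNOX2, and 0.923 for DSP with PBX2, above the 0.875 over all libraries. Among the 7 tested genes, MEIS1 and PKNOX2 were the most opposed (r = -0.922), MEIS1 and PKNOX1 were alike (0.827), and HOXB13 had r of -0.482 with MEIS1 and 0.523 with PKNOX2. These correlations among the 7 also include the differences between groups.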

How the data were processed

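Per the labels' protocols, total RNA of 18 LNCaP samples was made into NEBNext Ultra II RNA libraries and sequenced as paired ends. The authors deposited whole read counts per gene and FPKM for the same 58735 genes. Per the submitters' processing notes, the tools were featureCounts 1.5.0-p3 and HISAT2 2.0.5 and the build hg38. How strand and reads that fit several genes were handled is not given in the sources used here. Gene coordinates and exon lengths equal those of GENCODE in the reference files for all 58735 genes, and the deposited FPKM equalled count divided by exon length and library size within 0.1% in 100% of 285138 values with at least 10 counts.

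The deposited counts were tested with edgeR 4.0.16 (R 4.3.3, limma 3.58.1): filterByExpr kept 17162 genes (count minimum 10, total minimum 15), TMM set the library sizes, and the quasi-likelihood model had a coefficient for each of the 6 groups (18 libraries, residual degrees of freedom 12). The 12 comparisons were R1881 against vehicle in each rescue state, the rescue states in each treatment, and the 3 differences of responses, with Benjamini-Hochberg adjustment over all tested genes. Standard errors come from the F statistic, and intervals are at 95%. A floor of 3 counts gives the level that a count of 0 allows, and reads carry no molecular identifiers, so it covers counting error only. CPM is the count over the TMM effective library size.

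The alternatives were RLE size factors, DESeq2 1.42.0, no filter on low counts, 1 CPM in 3 libraries, the replicate number as a block, only the groups compared, and leaving out each library. On simulated counts for R1881 against vehicle in EV (17162 genes), the test recovered 22 of 67 genes with a 1.5-fold change, 51 of 67 with a 2-fold and 63 of 66 with a 4-fold change, and 9 calls were false. The simulation had 200 changed genes, the same dispersion (0.0186) for every gene and no link between libraries of the same number. These settings are simpler than the data, so the recovery holds for the simulated counts only.

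The text names all 9 members, the 3 genes of each list with the smallest adjusted p in a comparison of 2 groups, and by Pearson's r of log2 CPM (prior count 2) the genes most like a member with a mean of at least 5 CPM (2 each; 5 highest and 3 lowest for HOXB13). The members and lists were chosen with earlier results of these data known. Protein sequences were not used here, and a marker gene and a further promoter motif are not reported here.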

Additional observations from a re-analysis of the deposited data

Results flagged for a closer look

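The MEIS1 response to R1881 differed between WT and EV cells by a direct test of the difference. The WT response minus the EV response was -1.45 on the log2 scale (95% interval -2.01 to -0.89, edgeR, adjusted p of 0.0234). All 3 WT vehicle libraries (2.91, 5.73 and 3.81 CPM) lay above the EV vehicle libraries (2.44, 2.18 and 2.82), and all 3 WT R1881 libraries (9.02, 7.86 and 8.59) lay below the EV R1881 libraries (12.5, 15.6 and 13.6). Of all tested genes 10.8% did not overlap between WT and EV in vehicle and 31.5% with R1881. The call was lost in 7 of 18 alternatives, with adjusted p from 0.0526 to 0.0920: the fit of only the groups compared and the fits lacking library 1 or 2 of EV vehicle, 2 of WT vehicle (-1.16), 2 or 3 of EV with R1881, or 2 of WT with R1881. The differences of 3A from WT (0.91, edgeR adjusted p of 0.247) and from EV (-0.54, edgeR adjusted p of 0.808) were not called.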

How the results depend on the processing

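The log2 fold changes of the 7 tested genes were recomputed 1134 times over all alternatives. Of these, 1102 stayed on the same side of the threshold, 23 lost a call, 9 gained one and 0 called values changed sign. Most of the recomputed values were not called in the main fit and could not lose a call. The 1102 therefore does not measure how firm the calls are. With RLE size factors the median of all genes moved by less than 0.1. Replicate numbers were not treated as pairs in the main tests, although deviations from the group means partly went with the number. Of 45 same-numbered pairs of libraries from different groups, 31 had a correlation of deviations over 0.1 (lowest -0.373, median 0.216). The median was -0.129 for pairs with other numbers. For 16 of 18 libraries the mean correlation with libraries of other groups was highest for their own number. The main p-values leave this structure out. The replicate block raised the genes called in several comparisons, to 2409 from 1451 (3A against EV, R1881), 2072 from 1244 (3A against EV, vehicle), 1046 from 545 (3A against WT, R1881), 1732 from 967 (3A against WT, vehicle), 2709 from 1493 (WT against EV, R1881) and 270 from 132 (WT against EV, vehicle). For the response differences it gave 6 from 2 (3A minus EV), 96 from 10 (3A minus WT) and 133 from 34 (WT minus EV). DESeq2 gave 893 (3A against WT, R1881), 236 (WT against EV, vehicle), 8 (3A minus EV), 81 (3A minus WT) and 151 (WT minus EV). No filter on low counts gave 869, 325, 62, 178 and 226 in the same order. Only the groups compared gave 527 (3A against WT, vehicle), 2366 (WT against EV, R1881), 64 (WT against EV, vehicle), 7 (3A minus EV), 2 (3A minus WT) and 21 (WT minus EV). Of the 7 genes, 3A against EV in vehicle had 2 called by DESeq2 and 2 with the block (1 as reported), WT against EV in vehicle had 1 by DESeq2 (0 as reported), and WT minus EV had 0 with only the groups compared (1 as reported). The cause was not tested.

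Leaving out each library in turn, the genes called ran from 813 to 1427 (3A against EV, R1881), 751 to 1100 (3A against EV, vehicle), 298 to 441 (3A against WT, R1881), 472 to 1295 (3A against WT, vehicle), 601 to 1754 (WT against EV, R1881), 66 to 187 (WT against EV, vehicle), 0 to 6 (3A minus EV), 2 to 27 (3A minus WT) and 13 to 52 (WT minus EV). The calls among the 7 genes ran from 0 to 2 (3A against WT, R1881), 0 to 1 (3A against WT, vehicle), 0 to 1 (WT minus EV), 0 to 2 (WT against EV, R1881) and 0 to 1 (WT against EV, vehicle). For R1881 against vehicle, each fit lacking a library called 3 of the 7 genes in EV, where 4 were reported. These calls were 3 in each such fit in WT and 3 to 4 in 3A (3 as reported in both). These fits have fewer libraries. PBX4, MEIS2 and MEIS3 had at most 71, 2 and 10 counts per library, which limits the precision of their values at this depth.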

Other observations

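Coregulators that bind HOX, PBX or MEIS proteins were counted as a list of 11, and all were tested. With R1881, 2 were higher and 0 lower in EV, 4 higher and 1 lower in WT, and 3 higher and 2 lower in 3A (edgeR adjusted p under 0.05), where 25.3%, 20.1% and 24.5% of all tested genes were called. The median log2 fold change of the 11 was 0.14, 0.16 and -0.13, beside -0.02, -0.03 and -0.01 over all tested genes. TBL1X, a subunit of the NCOR corepressor complex, rose from 103 ± 0.746 to 150 ± 9.02 CPM in EV, from 105 ± 17.4 to 154 ± 17.2 in WT and from 93.9 ± 9.11 to 138 ± 16.02 in 3A (SD, n = 3). NCOR1, the corepressor itself, also rose in each rescue state, with log2 fold changes of 0.48 (EV), 0.62 (WT) and 0.41 (3A). The 3A value was called in only 1 of the 6 fits that leave out a library.

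PBXIP1, which binds PBX proteins and keeps them from DNA, fell with R1881 by 0.60 in WT and 0.45 in 3A. In EV its value was 0.07 (edgeR, adjusted p of 0.733). The direct differences of the responses were not called. They were -0.68 for WT minus EV (edgeR, adjusted p of 0.178) and -0.53 for 3A minus EV (edgeR, adjusted p of 0.745). The PBXIP1 levels with R1881 were 35.6 ± 4.21 CPM in EV, 25.4 ± 3.47 in WT and 25.2 ± 4.29 in 3A (SD, n = 3), against 33.8 ± 3.11, 38.5 ± 0.937 and 34.6 ± 3.57 in vehicle. Among the 11 coregulators, the WT and EV comparison with R1881 gave 1 call in each direction, where 8.70% of all tested genes were called. NCOR1 was above EV there (0.47, edgeR, adjusted p of 0.0352), a call kept in only 1 of the 6 fits lacking a library. The 3A and EV comparison with R1881 gave 1 call, where 8.45% of all tested genes were called. The other rescue comparisons gave 0. PBXIP1 was below EV with R1881 both in WT (-0.49, edgeR, adjusted p of 0.0248) and in 3A (-0.50, edgeR, adjusted p of 0.0212). The PBXIP1 call in WT was lost without EV R1881 library 2 or 3 or WT R1881 library 1 or 2. Its values were -0.57 to -0.39 over the 6 fits. The 3A calls were lost without 3A R1881 library 3, and also without EV R1881 library 2 against EV and without 3A vehicle library 3 in the response.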
